A study of Homo sapiens with 12 samples.

Results

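The 37 genes of the human mitochondrial genome were followed across 4 treatment groups of MSTO-211H, an established human mesothelioma cell line. They were all the genes listed on chromosome MT in the expression table, 37 of 58735 genes: 13 mRNA genes, 2 rRNA genes and 22 tRNA genes. The line was grown in suspension with EGF, bFGF and heparin, and its cells are described by the submitters as mesothelioma-initiating. Every group had 3 libraries. Con received vehicle and a sham exposure, and IR received vehicle and 4 Gy of radiation. Rx was read as 10 µM of a compound the labels call QTP with a sham exposure, and Combo as 10 µM QTP followed the next day by 4 Gy, since these are the arms of the design that the titles Con and IR leave over. RNA was isolated 48 h after irradiation in all 4 groups. The series title speaks of dopamine receptor inhibition together with radiotherapy, so the groups ask what each treatment does alone and what both do together. The labels name no separate cultures for the libraries within a group. The p-values below therefore rest on a spread that may be technical only.

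Mitochondria keep a small circular genome that codes for core subunits of the respiratory chain and the ATP synthase, and for the rRNAs and tRNAs that translate them inside the organelle. Both strands are transcribed into long precursors, and tRNAs that lie between the other genes are cut out to release the mRNAs and rRNAs. All other subunits of complexes I, III, IV and V are coded in the nucleus and imported, so each of these complexes is built from both genomes, while complex II is coded in the nucleus alone.

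The values were FPKM, read numbers scaled to the length of the gene and to a size set for each library. They came from 13188257 to 18630958 reads per library, of which 956926 to 1639382 lay in mitochondrial genes. The size was not this plain read number. FPKM times length in kb, summed over genes, ran from 954758 in Combo 3 to 1054114 in IR 3. Scaling to these reads alone would have given every library the same sum. How the size was set was not given in the sources used here. IR 3 and Combo 3 stood apart from the rest, with the extreme scores (28.7 and -21.5) on a first principal component that held 26.5% of variance. Several results are therefore also given without 1 or both of them, but not the values of each member. The defining markers of the labelled cell type were partly present: 5 of 12 mesothelial markers had a mean of at least 1 FPKM (KRT18, KRT8, MSLN, CALB2 and BNC1), and 4 were under 0.1 FPKM, with PDPN at 0 in every library. Markers of other cells (immune, endothelial, fibroblast) numbered 12, of which 10 were under 0.1 FPKM and 2 (LUM and COL1A1) were above 1 FPKM.

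The mitochondrial genome is so compact that some genes share bases, and these junctions matter for how the values can be read. MT-ATP8 and MT-ATP6, subunits of the ATP synthase, are read in different frames from the same 46 bases (MT:8527-8572, plus strand, GRCh38), which make up 22.2% of MT-ATP8. The sequences, from GENCODE release 29 transcripts, are given 5′ to 3′ with the shared bases in capitals.
MT-ATP8, last part: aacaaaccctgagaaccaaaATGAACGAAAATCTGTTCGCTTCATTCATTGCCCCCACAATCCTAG
MT-ATP6, first part: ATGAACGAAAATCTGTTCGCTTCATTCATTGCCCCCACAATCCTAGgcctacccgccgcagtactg
The complex I genes MT-ND4L and MT-ND4 share 7 bases (MT:10760-10766, plus strand), again in capitals, where the end of the first reading frame holds the start codon of the next.
MT-ND4L, last part: cataacctaaacctactccaATGCTAA
MT-ND4, first part: ATGCTAAaactaatcgtcccaacaatt
Of the 13 mRNA genes, 6 end before a full stop codon, 5 of them in a single T and MT-ND1 in TA; such codons are known to be completed by the poly(A) tail. Start, end and strand of all 37 genes were the same in the deposited table and in GENCODE release 29. How strand and shared bases were handled in counting is not stated, so reads from overlapping genes, and from RNA of the opposite strand, cannot be told apart.

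Mitochondrial transcripts were among the most abundant in the cells. By mean FPKM over the 12 libraries, 9 of the top 10 genes, 15 of the top 20 and 16 of the top 30 were mitochondrial. The highest nuclear gene was EEF1A1, a translation elongation factor, at 3421 FPKM and rank 10. The mRNAs and rRNAs, except MT-ATP8, had means between 1501 and 11679 FPKM.

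Complex IV mRNAs, which code for the catalytic core of cytochrome c oxidase, stood at the top. MT-CO1 (MT:5904-7445, plus strand) had 9134, 10486 and 12670 FPKM in the Con libraries, 9496, 11658 and 12972 with IR, 12450, 11318 and 13488 with Rx, and 13200, 10796 and 12483 with Combo. The groups overlapped, and the library lowest for MT-CO1 was a Con library and the highest an Rx library. MT-CO3 (mean 10311 FPKM, MT:9207-9990) and MT-CO2 (mean 10195 FPKM, MT:7586-8269) followed, and neither was regularly above the other, since MT-CO3 was the higher in 5 of 12 libraries. MT-CO1 was above MT-CO3 in 11 of 12 libraries.

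The 7 complex I mRNAs code for the membrane arm of NADH dehydrogenase and spanned 2380 to 8661 FPKM by mean. MT-ND4 was the highest of them (MT:10760-12137) and lay below MT-CO2 in all 12 libraries. MT-ND2 averaged 4266 FPKM, MT-ND4L 4073, MT-ND1 3393, MT-ND3 3301, MT-ND6 2807 and MT-ND5 2380. Neighbours in this order mostly overlapped: MT-ND2 was above MT-ND4L in 7 of 12 libraries and MT-ND1 above MT-ND3 in 8, whereas MT-ND6 was above MT-ND5 in 12 of 12. MT-ND6 is the only mRNA gene on the minus strand (MT:14149-14673), and its base composition is the mirror of the others, with 35.6% G and 7.05% C. MT-CYB, the complex III subunit cytochrome b (MT:14747-15887), averaged 4390 FPKM and ranged from 2954 in IR 1 to 6329 in IR 3.

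The complex V mRNAs were far apart. MT-ATP6 averaged 6618 FPKM and MT-ATP8 147 FPKM, although both are known to lie on 1 transcript, and the ratio of MT-ATP6 to MT-ATP8 ran from 30.3 (Combo 3) to 62.2 (IR 2). MT-ATP8 was the lowest mRNA in every library, and the step down to it from MT-RNR1, 10.2-fold, was the only one between neighbours among the 15 mRNA and rRNA genes whose ranges did not overlap. Its reads numbered 331 to 829 per library, against at least 11032 for each of the complex I genes. MT-ND4 and MT-ND4L, which also share bases, were closer in level: the ratio of MT-ND4 to MT-ND4L stayed between 1.97 and 2.30. How much of the MT-ATP8 level rests on its shared bases was not tested.

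The 2 rRNAs form the mitochondrial ribosome with imported proteins. MT-RNR2, the large rRNA (MT:1671-3229), averaged 8060 FPKM, and MT-RNR1, the small rRNA (MT:648-1601), 1501 FPKM. MT-RNR1 had 1734, 1138 and 1328 FPKM in the Con libraries, 1916, 1290 and 1976 with IR, 1482, 1289 and 1458 with Rx, and 1498, 952 and 1954 with Combo. Both the highest and the lowest libraries of MT-RNR1 came from irradiated groups, and the ratio of large to small rRNA ran from 3.63 in IR 1 to 7.04 in Combo 2. Selection for poly(A) or depletion of rRNA, either of which acts on rRNA levels, is not described in the labels.

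**Figure D1:**
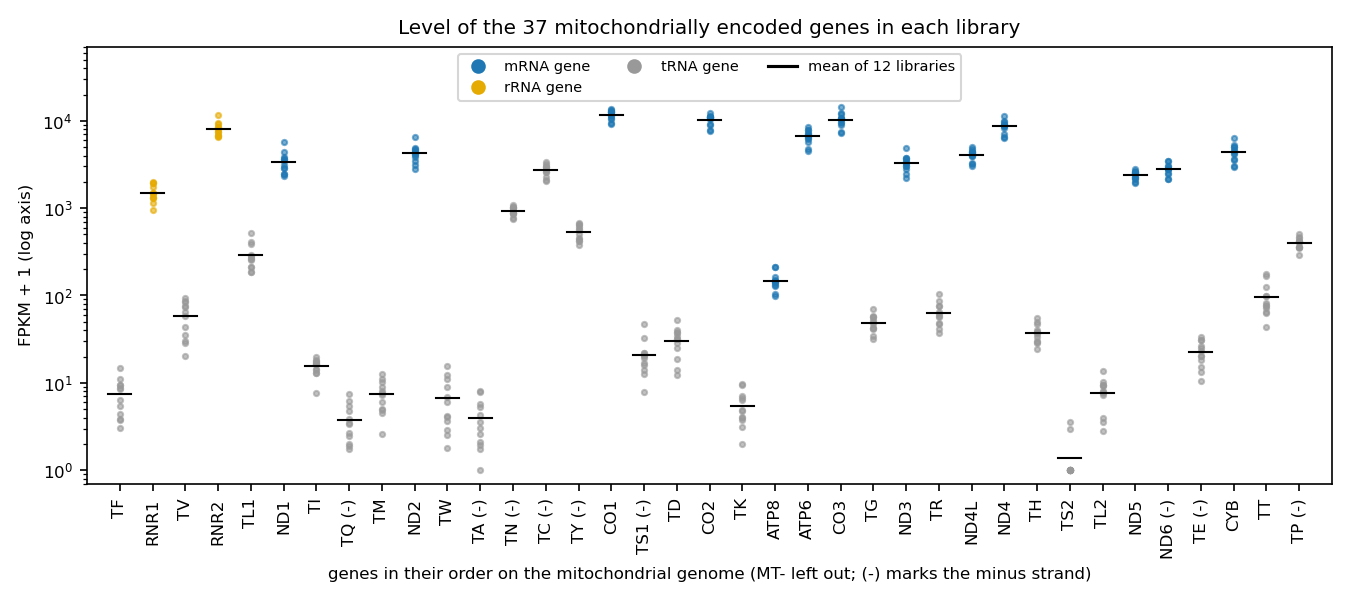
Level of each of the 37 mitochondrially encoded genes (FPKM + 1, log axis) in gene order along the genome, 1 point per library and a bar for the mean of 12 libraries. The mRNA and rRNA genes other than MT-ATP8 have means of 1501 to 11679 FPKM, while tRNA genes run from 0.37 (MT-TS2) to 2725 FPKM (MT-TC).

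The tRNA genes are 59 to 75 bases long and spanned a far wider range. Of 22, 14 had read support, set at a mean of at least 10 reads per library. Those under it were MT-TL2, MT-TM, MT-TF, MT-TW, MT-TK, MT-TA, MT-TQ and MT-TS2. The 4 highest, MT-TC, MT-TN, MT-TY and MT-TP (tRNAs for cysteine, asparagine, tyrosine and proline), all lie on the minus strand. MT-TC reached 2725 FPKM, the FPKM of an mRNA gene, from 2184 to 3763 reads per library. FPKM divides by a short length here: MT-TC had a mean of 2957 reads, and MT-ND6, at 2807 FPKM, 24333. Whether reads in tRNA genes came from the tRNAs or from longer RNA that spans them was not tested. It had 2082, 2026 and 2974 FPKM in the Con libraries, 2288, 3191 and 3373 with IR, 2574, 2729 and 2794 with Rx, and 3065, 2992 and 2613 with Combo, so the Con libraries held the lowest values but overlapped with every other group. MT-TN averaged 925 FPKM, MT-TY 528 and MT-TP 399, and the highest tRNA gene on the plus strand was MT-TL1 at 288 FPKM. By contrast MT-TA (tRNA for alanine), which lies beside MT-TN on the same strand, averaged 2.93 FPKM and 3.42 reads per library. These 4 neighbours from MT-TA to MT-TY lie within 305 bases. They are printed because they show how much the level changed between adjacent genes, and MT-TS2, a serine tRNA, because it was the least detected member. Anticodons are in capitals.
MT-TA (MT:5587-5655, minus strand): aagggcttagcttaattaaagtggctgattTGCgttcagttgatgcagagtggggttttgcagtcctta
MT-TN (MT:5657-5729, minus strand): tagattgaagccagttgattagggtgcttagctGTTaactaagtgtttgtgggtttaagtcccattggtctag
MT-TC (MT:5761-5826, minus strand): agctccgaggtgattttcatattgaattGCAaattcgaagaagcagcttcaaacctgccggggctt
MT-TY (MT:5826-5891, minus strand): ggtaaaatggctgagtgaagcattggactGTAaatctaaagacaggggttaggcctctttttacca
MT-TS2 (MT:12207-12265, plus strand): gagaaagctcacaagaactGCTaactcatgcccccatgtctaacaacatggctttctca
The 31 bases between MT-TN and MT-TC are known as the origin of light strand replication. MT-TS2 had no read in 10 of 12 libraries, and 3 reads there would have been 2.66 to 3.64 FPKM. Its 4 reads in all came from Con 3 and Combo 1, and with a mean of 0.37 FPKM it was the only member below the test's filter of 1 FPKM, which left 36 members tested. MT-TA was at 0 in Rx 3 alone, where 3 reads would have been 2.91 FPKM.

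Copies of mitochondrial genes in the nuclear genome can share reads with the members. Of 407 such copies by symbol, 3 had a mean of at least 10 FPKM, and all 3 lie on chromosome 1. MTATP6P1 (633696 to 634376) averaged 502 FPKM and was identical to MT-ATP6 at 671 of 681 aligned bases. MTND2P28 (629640 to 630683) averaged 226 FPKM, with 1025 of 1042 bases identical to MT-ND2, and MTCO1P12 (631074 to 632616) averaged 45.7 FPKM, with 1522 of 1542 bases identical to MT-CO1. Against their members these copies stood at 6.71 to 8.47% of MT-ATP6, 4.74 to 5.73% of MT-ND2 and 0.330 to 0.467% of MT-CO1. All copies together were given 0.047 to 0.087% of reads. How reads that match both were divided or dropped is not stated, so the split between copy and member is uncertain by an unknown amount.

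Of the 15 mRNA and rRNA genes, 11 were highest in IR 3, 2 in Rx 1 and 2 in Rx 3. Their lowest values lay in IR 1 for 9 genes, Con 2 for 3, Con 1 for 2 and Combo 2 for 1, so the IR group held most of both extremes. MT-ND1 was the widest mRNA gene, with 2437, 2436 and 3896 FPKM in the Con libraries, 2342, 2878 and 5657 with IR, 3506, 3613 and 4340 with Rx, and 3628, 3134 and 2849 with Combo. MT-ND5 was the narrowest, from 1925 to 2814 FPKM. Levels of MALAT1, an RNA that stays in the nucleus, were 84.1, 67.4 and 46.1 FPKM in IR 1 to 3 and 69.2, 58.8 and 99.0 in Combo 1 to 3. MALAT1 was thus lowest in IR 3, the library where 11 of these 15 genes were highest, and its part in these differences was not tested.

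**Figure D2:**
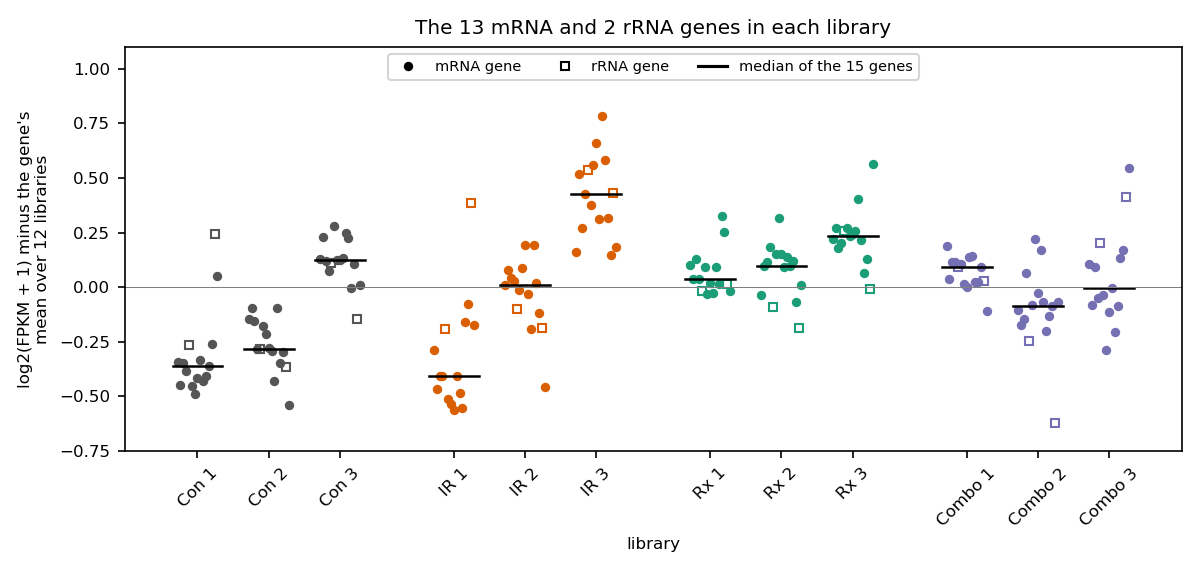
Each of the 13 mRNA genes (points) and 2 rRNA genes (open squares) in each library, as log2(FPKM + 1) minus the gene's mean over 12 libraries, with the median of the 15 genes as a bar. IR 1 and IR 3 lie at opposite ends within 1 group, and 11 of the 15 genes were highest in IR 3.

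As a share of all reads, the 37 genes took 6.74, 7.41 and 9.22% in the Con libraries, 6.73, 8.26 and 10.5% with IR, 8.87, 8.59 and 9.78% with Rx, and 9.06, 8.06 and 8.98% with Combo. The means ran from 7.79 ± 1.29% (Con) to 9.08 ± 0.62% (Rx) (SD, n = 3). The ranges of all 4 groups overlapped, and the IR libraries alone lay further apart than these means. In each of the 3 same-numbered pairs the share was higher in Rx than in Con, which was not tested. The 95% Wilson intervals of the single shares were at most 0.016 percentage points to either side, and cover counting error only. In RNA from whole cultures, a change in the number of cells of a kind and a change in the RNA per cell cannot be told apart. Within mitochondrial reads complex I genes took 31.0 to 34.6%, complex III 4.67 to 7.24%, complex IV 35.8 to 41.6%, complex V 4.74 to 5.90%, rRNAs 14.4 to 19.1% and tRNAs 0.369 to 0.485%. The complex III share was widest within Combo, from 4.67% in Combo 3 to 7.24% in Combo 2, and MT-RNR1 alone took the least in Combo 2 and the most, 2.76%, in IR 1. The lowest complex IV share, 35.8%, was that of IR 3. Minus strand genes took 1.89 to 2.44%.

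**Figure D3:**
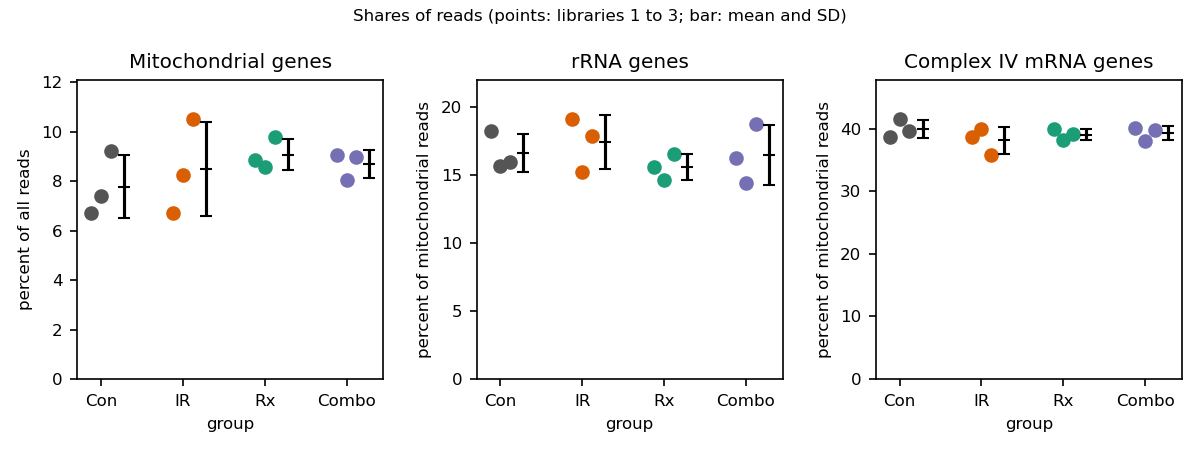
Percent of all reads in mitochondrial genes (left), and percent of mitochondrial reads in rRNA genes (middle) and complex IV mRNA genes (right), with 1 point per library and the mean ± SD of each group of 3. The groups overlap in all panels, and the IR libraries are spread from 6.73 to 10.5% of all reads.

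Differences between groups were tested on log2(FPKM + 1) with limma over 13038 genes. IR, Rx and Combo were each set against the same 3 Con libraries, so these comparisons are not independent of each other. Radiation alone, IR against Con, left the mitochondrial genes without a call: 0 of 36 members passed an adjusted p of 0.05, as did 0% of all genes tested, and the lowest adjusted p of a member was 0.708 (limma). At an unadjusted p under 0.05, limma named 2 members, against 6.86% of all genes. Limma voom on the recovered reads called 0 and named 1, but its share of all genes at that level is not given here. Of the 2 members limma named, MT-TS1, a serine tRNA, was the one with the higher mean in IR. Its log2 change was 1.05 (SE 0.41). It had 20.8, 6.93 and 13.1 FPKM in Con and 20.0, 20.7 and 46.7 in IR, so the groups overlapped. The reads behind these values were 24, 8 and 12 in Con and 20, 22 and 45 in IR. None of the members (0) lay wholly above or below Con, against 5.56% of all genes wholly above and 4.98% wholly below. MT-TK, the lysine tRNA, was lower by a log2 change of -0.93 (SE 0.41), on 1 to 10 reads per library. Of the 36 members 28 had a higher mean in IR, against 52.6% of all genes, and the median log2 change was 0.15. All 13 mRNA genes had higher means, by 0.01 (MT-ATP8) to 0.30 (MT-ND6), but this rested on IR 3. Without IR 3, 4 of the 13 were higher and their median moved from 0.15 to -0.05. It moved to 0.40 without IR 1, 0.31 without Con 3 and 0.08 without Con 1 (9 of 13 higher), and after rescaling to TPM 9 of 13 were higher. Within same-numbered pairs of libraries, 3 of the 13 were higher in IR in all 3 pairs, and 9 of the 36 members were, against 18.5% of all genes. The replicate block, which fits the number as a pair, called 0 members (lowest adjusted p 0.470, limma). At an unadjusted p under 0.05 it named 2, against 8.34% of all genes. These were MT-TS1, higher in IR, and MT-TW, lower by a log2 change of -1.08 on 1 to 13 reads per library. MT-TK was not among them.

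With QTP alone, Rx against Con, the 13 mRNA genes again all had higher means, by 0.20 (MT-ND3) to 0.42 (MT-ND1), with a median log2 change of 0.29. None passed the test: 0 of 36 members were called by limma or by voom, as were 0% of all genes, and the lowest adjusted p of a member was 1.00 (limma). MT-ND6 was the 1 member at an unadjusted p under 0.05, against 3.26% of all genes. Its levels were 2161, 2184 and 2773 FPKM in Con and 3478, 3018 and 2901 in Rx. Every Rx library lay above every Con library, a log2 change of 0.41 (SE 0.16, adjusted p = 1.00, limma). MT-ND6 was the only member whose groups did not overlap in this comparison, 2.78% of the 36, against 4.6% of all genes that were higher without overlap; 0 members were lower without overlap, against 3.18%. Of all 36 members 30 had higher means in Rx, against 51.7% of all genes, with a median of 0.22 log2. All 13 mRNA genes kept the higher mean with each library left out in turn and under all 3 rescalings, with medians from 0.20 (TPM, and also without Con 1) to 0.43 (without Con 3). Within same-numbered pairs, 10 of the 13 mRNA genes were higher in Rx in all 3 pairs, the exceptions being MT-ATP6, MT-ND3 and MT-ATP8, and 16 of the 36 members were, against 13.8% of all genes. These counts are a description, since members of 1 library share its depth and RNA. The replicate block called 0 members (lowest adjusted p 1.00, limma) and named 3 of 36 at an unadjusted p under 0.05, against 4.33% of all genes. Of these, MT-ND6 and MT-ATP8 were higher in Rx. MT-TW was lower, at a log2 change of -0.88 on 1 to 13 reads per library. The rRNAs differed less, by log2 changes of 0.19 (SE 0.23) for MT-RNR2 and 0.03 (SE 0.26) for MT-RNR1.

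Both treatments together, Combo against Con, gave the mRNA genes means that were higher by 0.00 (MT-ND3) to 0.28 (MT-ATP8), with a median log2 change of 0.18. Again 0 of 36 members were called by limma, as were 0% of all genes, and the lowest adjusted p of a member was 0.478 (limma). No member (0) reached an unadjusted p under 0.05 with limma, while 13.2% of all genes did. Voom called 0 members and named 2 at that level, but its share of all genes there is not given here. MT-TE, the glutamate tRNA, had the largest change among members with read support. It had 17.3, 9.53 and 24.0 FPKM in Con and 22.3, 25.1 and 29.6 in Combo, which overlapped, for a log2 change of 0.65 (SE 0.37). None of the 36 (0) lay wholly above or below Con, against 10% of all genes wholly above and 12.8% wholly below. Higher means were seen for 30 of the 36 members, against 48.5% of all genes. The replicate block called 0.69% of all genes here (90) and 0 members, and 0.023% (3) and 0 members with radiation averaged. Without Con 1, 10 of the 13 mRNA genes were higher and their median was 0.05; without Con 3 it was 0.33; without Combo 1, 11 were; and after rescaling to TPM, 12 were.

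Against IR, which asks what QTP adds to radiation, the Combo group was split. The mean was higher for 19 of 36 members and lower for 17, against 47.4% of all genes higher, and 0 were called by limma or voom, as were 0% of all genes (lowest adjusted p of a member 0.324, limma). At an unadjusted p under 0.05 limma named 0 members but 17.5% of all genes. MT-TS1 alone did not overlap in FPKM, with 11.5, 18.3 and 15.9 in Combo and 20.0, 20.7 and 46.7 in IR. Its log2 change was -0.80 (SE 0.41). Its unscaled reads, 14, 24 and 21 in Combo and 20, 22 and 45 in IR, did overlap. This 1 gene is 2.78% of the members, against 11.6% of all genes that were lower without overlap. In FPKM 0 members were higher without overlap, against 8.53%. The direction of the mRNA genes depended on single IR libraries: 13 of 13 had higher means in Combo without IR 3, and 2 of 13 without IR 1, against 7 of 13 with all. Without IR 1, limma called 7.33% of all genes (956) and 0 members, and named 4 members at an unadjusted p under 0.05, against 28.6% of all genes.

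Against Rx, which asks what radiation adds to QTP, all 13 mRNA genes had lower means in Combo, by a median log2 change of -0.16 and at most -0.25 (MT-ND1), although 4 of 13 were higher after rescaling to TPM. Limma and voom each called 0 of 36 members, and 0% of all genes passed; the lowest adjusted p of a member was 0.672 (limma), and 0 members against 9.11% of all genes reached an unadjusted p under 0.05. In FPKM, MT-CO3, MT-CO2 and MT-ND2 lay lower in every Combo library than in any Rx library, 8.33% of the members against 12.7% of all genes. Their unscaled reads did overlap: those of MT-CO2 were 131508, 118756 and 140869 in Combo and 139832, 136374 and 116770 in Rx. MT-CO3 had 10391, 8990 and 9564 FPKM in Combo and 10406, 10844 and 12236 in Rx, for a log2 change of -0.21 (SE 0.26). MT-CO2 had 10933, 9110 and 10771 FPKM in Combo and 11023, 10942 and 11429 in Rx, so its groups were apart by less than the spread within Combo. For MT-ND2 the values were 4174, 4086 and 3847 FPKM in Combo and 4229, 4627 and 4941 in Rx.

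The interaction, which asks whether the change with radiation differs with QTP, was below 0 for all 13 mRNA genes, with a median log2 value of -0.31, and above 0 for 10 of all 36 members, against 44.9% of all genes. No member (0 of 36) was called by limma or voom, as was 0% of all genes, and the lowest adjusted p of a member was 0.609 (limma). The 1 member at an unadjusted p under 0.05 (limma), against 7.63% of all genes, was MT-TS1 at -1.53 (SE 0.57). It rested on 8 to 45 reads per library. Without IR 3 the mRNA median was -0.10 and 2 of 13 were above 0; it was -0.52 without IR 1 and -0.19 without Con 1. Rescaling to TPM moved the interaction's median over all genes from -0.03 to 0.14. The mRNA median after the same rescaling was -0.11, below that of all genes, with 4 of 13 above 0. When each treatment was averaged across the arms of the other, QTP called 0.092% of all genes (12; voom 0.253%) and radiation 0%, with 0 members in either (lowest adjusted p 0.527 and 0.557, limma). At an unadjusted p under 0.05 QTP named 0 members, against 11.4% of all genes, and radiation 1, MT-TK at a log2 change of -0.67, against 8.51%.

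The proteins of these mRNAs join nuclear partners, whose mRNAs were measured in the same libraries at much lower levels. In complex I the mitochondrial genes had a median of 3393 FPKM and the 37 nuclear genes 15.8 FPKM; in complex III 4390 and 39.2 FPKM; in complex IV 10311 and 38.8 FPKM; in complex V 3382 and 28.8 FPKM. ATP5F1B, the catalytic beta subunit of the ATP synthase, was the 1 nuclear gene above a mitochondrial member of its complex, at 342 FPKM against 147 for MT-ATP8. Of the nuclear genes of these complexes 70 were tested, and 0 were called in any comparison (limma).

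In Combo against Con, 67 of the 70 nuclear genes had lower means, with a median log2 change of -0.22, whereas the 13 mitochondrial mRNA genes had higher means, as did 48.5% of all genes. The split held over each complex: 32 of 35 nuclear genes were lower in complex I (median -0.19), 9 of 9 in complex III (-0.24), 11 of 11 in complex IV (-0.22) and 15 of 15 in complex V (-0.25). At an unadjusted p under 0.05 limma named 20 of the 70, against 13.2% of all genes. ATP5F1A, the alpha subunit of the ATP synthase, averaged 45.8 ± 4.16 FPKM in Con and 36.5 ± 2.88 in Combo (SD, n = 3). Its log2 change was -0.32 (SE 0.089, adjusted p = 0.185, limma), and -0.26 without Combo 3. ATP5F1B was at -0.30, and the complex I subunits NDUFB6 and NDUFV1 at -0.33 and -0.25. The complex III subunits UQCRC1 and UQCRFS1 were at -0.23 and -0.26, and NDUFA4 and COX6C of complex IV at -0.30 and -0.27. Without Combo 3 these genes ran from -0.20 (NDUFA4) to -0.27 (NDUFB6). SDHA, the flavoprotein of the all-nuclear complex II, was at -0.34 (SE 0.070, adjusted p = 0.122, limma), and all 4 complex II genes were lower. In Combo against IR 69 of the 70 were lower (median -0.33), and 52 reached an unadjusted p under 0.05 (limma), against 17.5% of all genes. Of the 13 mitochondrial mRNA genes 6 were lower there, which rested on single libraries. Without IR 1, 2 of the 13 and 1 of the 70 were higher, and without IR 3, 13 of the 13 and 2 of the 70. In IR against Con both sets lay on the same side, with 63 of the 70 and all 13 higher. The same held in Combo against Rx, with 68 of the 70 and all 13 lower. With QTP averaged over both radiation arms they lay apart: 69 of the 70 were lower (median -0.16) and all 13 were higher (median 0.16). Without IR 1, 10 of the 13 were higher in that average. In Rx against Con 34 of the 70 were higher and 36 lower. The nuclear median in IR against Con was 0.11, and -0.01 without IR 3, 0.07 without Con 1 and 0.23 without IR 1. Without IR 3 and Combo 3, the median of the 70 was -0.18 in Combo against IR, and in Combo against Con it was -0.15 and that of the 13 mitochondrial mRNA genes 0.16. Without Con 1, 10 of the 13 were higher in Combo against Con (median 0.05), as were 3 of the 70 (median -0.25). The difference between the nuclear and the mitochondrial genes was not tested.

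**Figure D4:**
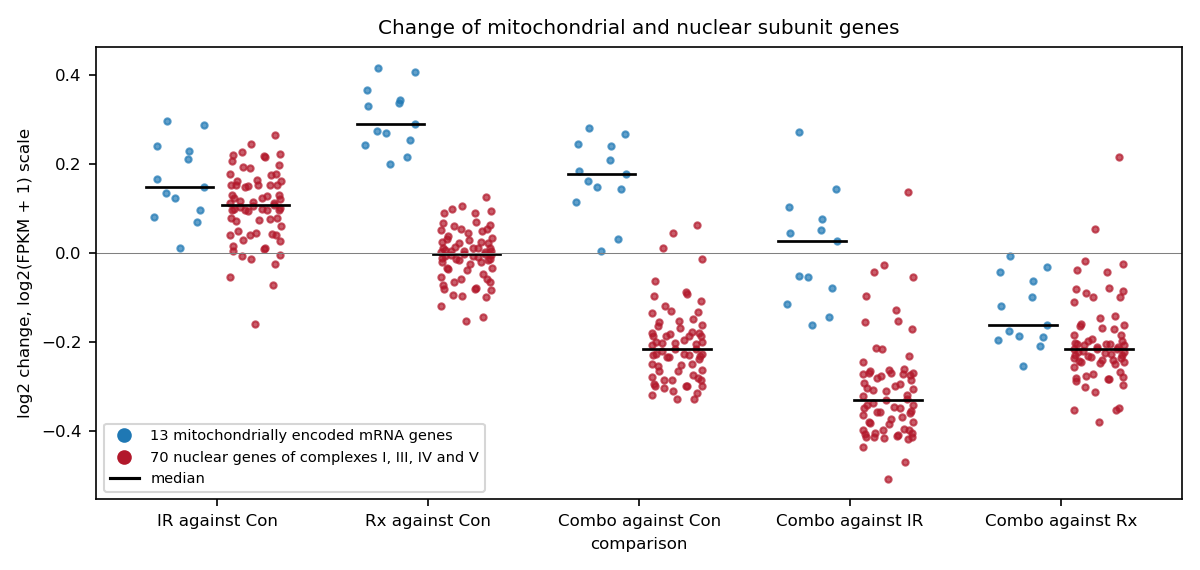
Log2 change on the log2(FPKM + 1) scale of the 13 mitochondrially encoded mRNA genes (blue) and the 70 nuclear genes of complexes I, III, IV and V (red) in 5 comparisons, 1 point per gene and a bar for the median. In Combo against Con the medians were 0.18 and -0.22, and no gene shown passed the adjusted threshold.

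Genes that make and process mitochondrial RNA were mostly lower in Combo than in Con, by smaller medians than the nuclear subunit genes. Of all genes 48.5% were higher there. In Combo against Con 9 of 10 transcription genes had lower means (median log2 change -0.11), among them TFAM, which packages and transcribes mitochondrial DNA, at -0.20 (SE 0.089), and the termination factor MTERF1 at -0.15. Of the RNA processing and turnover genes 21 of 23 were lower (median -0.09), including the rRNA methyltransferases MRM2 at -0.27 and MRM3 at -0.25. Genes of mitochondrial DNA upkeep were split, 8 higher and 10 lower, with DNA2, a nuclease and helicase, at -0.31 and the single-strand binding protein SSBP1 at -0.30. Biogenesis regulators were split as well, 3 higher and 5 lower, with YY1 at 0.13 and PPARGC1B at 0.16. Limma called 0 genes of these 4 lists in any comparison, with lowest adjusted p values in Combo against Con of 0.375, 0.288, 0.253 and 0.472, and named 1, 4, 3 and 0 of them at an unadjusted p under 0.05 in that comparison, against 13.2% of all genes. Without Combo 3, TFAM was at -0.13 and MTERF1 at -0.10, MRM2 at -0.21 and MRM3 at -0.23, and DNA2 at -0.23 and SSBP1 at -0.26.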

How the data were processed

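The authors deposited FPKM per gene for 58735 genes in 12 libraries, with gene lengths, biotypes and coordinates. The submitters' processing notes name the build hg38. Aligner, counter, strand setting and annotation release were not given in the sources used here. Per the labels' protocols, total RNA went into the NEBNext Ultra RNA kit. FPKM times length gave whole reads in 100% of values above 0 (tolerance 0.01 read). A gene of 1 kb at 1 FPKM rested on 13.3 to 19.1 reads.

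Members were the genes on chromosome MT. Members and gene lists were chosen with earlier results of these data known. Besides members, the text names the 2 smallest p values per list in Combo against Con and nuclear copies of at least 10 FPKM; others named, such as EEF1A1 and the markers, were chosen after their values were seen. Log2(FPKM + 1) values of the 13038 genes that averaged 1 FPKM or more were fitted with limma (3.58.1, R 4.3.3) (group means, all 12 libraries, variance trend, two-sided, Benjamini-Hochberg over all genes, threshold 0.05). The pseudocount understates changes of low genes. Copies were aligned with Biopython 1.88, and intervals came from scipy 1.17.1. No replicate pair was a repeat (chi-square per degree of freedom 9.18 to 51.5). Replicate numbers come from the titles. Deviations of same-numbered libraries correlated at 0.161 to 0.354 for IR with Con and 0.191 to 0.282 for Rx with Con, so these numbers were taken as pairs. For Combo the correlations were -0.207 to 0.212 and did not all pass 0.1. The same-numbered IR 3 and Rx 3 were at -0.017. Differently numbered libraries reached 0.124 for IR with Con (IR 3, Con 2) and 0.035 for Rx with Con (Rx 2, Con 1). Elsewhere they reached 0.262 (IR 1 with Combo 3), so the numbers are uncertain as pairs. Alternatives were another pseudocount (0.1), filters (none, a mean of 5 FPKM), 3 rescalings, only the groups compared, no variance trend, the replicate block, voom on recovered reads, each library left out, and IR 3 with Combo 3 left out. Voom with the replicate block was added after seeing the data.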

Additional observations from a re-analysis of the deposited data

How the results depend on the processing

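Over the 24 alternatives run for the pairwise comparisons and 23 for the interaction and averages, 0 mitochondrially encoded genes were called, and the lowest adjusted p of a member was 0.108 (Combo against IR without IR 1, limma, where 956 of all genes were called, against 0 with it). Of 6780 recomputed member values 491 had the other sign, 21 of them by more than 1 SE. With the replicate block, the lowest adjusted p of a member in Combo against Con was 0.156 (limma); the block called 90 genes there (0.69% of all, 0 members), against 0 without it, and 3 with radiation averaged. Voom called 33 genes with QTP averaged, against 12, and voom with the block 286 in Combo against Con. After rescaling to TPM the members' median turned from -0.05 to 0.03 in Combo against Rx and from -0.18 to 0.02 in the interaction. Both medians moved by less than the spread of the members' median between replicates (0.227 log2). TPM also moved the share of all genes with a higher mean to 26.8% (IR against Con), 23.5% (Rx against Con) and 76.0% (interaction). With 3 libraries a group, member SEs of 0.14 to 0.72 log2 in the pairwise comparisons, and up to 1.02 in the interaction, limit what can be seen, and tRNA genes under read support rest on at most 17 reads per library.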

Other observations

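Stress genes that are known to respond to failing mitochondria were on both sides in Combo against Con: of 14 tested, 5 had higher means (48.5% of all genes did) and 9 lower, 6 reached an unadjusted p under 0.05 (13.2% of all genes), and 0 were called (limma). The 2 with the smallest p were both higher, also without Combo 3 (log2 changes of 0.48 for DDIT3 and 0.43 for TRIB3). DDIT3, a transcription factor of the integrated stress response, averaged 10.8 ± 1.88 FPKM with Con, 13.7 ± 2.44 with IR, 14.96 ± 1.504 with Rx and 16.7 ± 2.45 with Combo (SD, n = 3), with a log2 change of 0.58 (SE 0.15, adjusted p = 0.155, limma). TRIB3, a pseudokinase of the same response, averaged 16.7 ± 2.92 FPKM with Con, 16.6 ± 2.18 with IR, 23.0 ± 3.24 with Rx and 24.5 ± 3.42 with Combo (SD, n = 3), with a log2 change of 0.53 (SE 0.15, adjusted p = 0.185, limma).

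The mesothelial markers CALB2 and KRT8 were lower in Combo than in Con, by log2 changes of -0.73 and -0.51 (-0.69 and -0.38 without Combo 3). LUM and COL1A1 were at 0.45 (0.26 without Combo 3) and 0.10 (-0.06 to 0.21 with a library left out). Of these genes 0 were called (limma, lowest adjusted p = 0.155). Summed mesothelial markers ran from 1039 to 1310 FPKM in Con and from 701 to 1043 in Combo, and summed markers of other cell types from 5.49 to 7.63 FPKM in Con and from 7.15 to 10.4 in Combo; the part of either in the mitochondrial values was not tested. NEAT1, like MALAT1 retained in the nucleus, was highest in Combo 3 (64.1 FPKM) and IR 1 (54.2) and at 27.5 FPKM in IR 3. The log2 changes of MALAT1 and NEAT1 in Combo against Con were 0.33 and 0.36; they were 0.12 and 0.15 without Combo 3, and NEAT1 was at 0.56 without Combo 2. Those of the nuclear copies MTCO1P12 and MTND2P28 were 0.15 and 0.13. With a library left out they ran from 0.02 (without Combo 1) to 0.28 (without Combo 2) and from 0.05 (without Con 1) to 0.27 (without Con 3); 0 of these 4 were called (limma).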
